A study of Homo sapiens with 6 samples.

Results

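The genes of the kynurenine pathway were taken by name, without regard to their counts: IDO1, IDO2, TDO2, AFMID, KMO, KYNU, HAAO, QPRT, KYAT1 and KYAT3, which are 10 of the 61541 genes listed in each deposited file. They were read in RCC4, an established human line of clear cell kidney cancer that is known to lack functional VHL. Native poly(A)-selected RNA molecules were sequenced through nanopores from 3 untreated cultures and 3 cultures given the cytokines interferon gamma (IFNγ) at 1000 U/mL and tumour necrosis factor (TNF) at 25 ng/mL for 24 h. All 6 libraries came from the same line in the same medium, each biological replicate pooled 3 flasks, and the labels name no vehicle. Because the cytokines were given only together, the share of each in any difference cannot be told apart.

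The kynurenine pathway is the main route by which cells break down the essential amino acid tryptophan. Its first step, opening of the indole ring, is made by IDO1, IDO2 or, in liver, TDO2, and later enzymes lead to kynurenic acid, to anthranilic acid or, through quinolinic acid, to NAD. IDO1 is a classical IFNγ target whose activity lowers tryptophan and raises kynurenine around the cell, which restrains T cells and the growth of intracellular microbes.

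Library totals ran from 3626000 to 4406296 counts, and levels are given as CPM, in which TMM factors make library sizes comparable. A count of 3, the limit that a count of 0 allows, was worth between 0.674 and 0.862 CPM, which covers counting error only. Untreated replicate 3 stood apart: untreated replicates 1 and 2 differed by a chi-square per degree of freedom of 3.48, and each differed from replicate 3 by 24.7 and 21.5. The 3 treated pairs gave 10.3 to 15.9. Of 13 renal carcinoma and epithelial markers, 11 passed the filter on low counts, among them VIM at 4594 ± 309 CPM, KRT8 at 1342 ± 371.3, PAX8 at 144.8 ± 16.4 and CA9 at 38.5 ± 7.55 in untreated cells (SD, n = 3). The proximal tubule receptor gene LRP2 had 0 counts in all 6 libraries. Of 16 markers of leukocytes, endothelium, fibroblasts, liver and red cells, 13 had at most 3 counts in every library, and the leukocyte gene PTPRC, the myeloid gene LYZ and the endothelial gene PECAM1 had 0 in all 6. The summed level of these 16 markers was 49.7 to 66.2 CPM in untreated and 26.7 to 49.4 CPM in treated libraries, and most of it was COL1A1. Of the tested markers, the renal ones NNMT and VIM were called higher and PAX8 and KRT19 lower, and of the others CSF1R was called lower (22, 21 and 13 counts without cytokines; 5, 5 and 4 with them). NNMT kept its call under all 13 alternatives, KRT19 under 10, VIM under 9, PAX8 under 8 and CSF1R under 6, and neither DESeq2 nor limma voom called CSF1R. The part of these shifts in the results on pathway genes was not tested. Across all genes, 562 of the 10067 tested, or 5.58%, were higher in treated cells and 257, or 2.55%, were lower, together 8.14% (edgeR quasi-likelihood test, Benjamini-Hochberg adjusted p below 0.05). With library totals alone as the scaling, the split was 489 higher and 363 lower, and the median log2 fold change over all genes moved from -0.03 to -0.13. CPM of the groups did not overlap for 25.9% of the tested genes.

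The first step of the pathway was read from IDO1 alone of its 3 possible enzymes. IDO1 (ENSG00000131203; chromosome 8, 39902275 to 39928790, plus strand, GRCh38) had 0 counts in each of the 3 untreated libraries and 1496, 3895 and 6490 counts in treated replicates 1, 2 and 3. These correspond to 429.9, 875 and 1842 CPM, or 0.0393%, 0.0884% and 0.179% of each library. The groups were far apart, and the gene went from undetected to rank 393, 167 and 85 by counts within the 3 treated libraries. The treated mean was 1049 ± 722 CPM (SD, n = 3), at least 1342-fold higher than the level of 3 counts in the untreated library where that level was greatest. IDO1 passed the filter through its treated libraries alone, so its p-values are not given as support, and the difference rests on the counts. Its edgeR quasi-likelihood adjusted p was 0.00029. It stayed past the threshold under all 13 alternatives, with an adjusted p of at most 0.00254. The lower bound was 834.8-fold without treated replicate 3 and 1738-fold without treated replicate 1. In bulk RNA, a change in the share of cells that express a gene and a change in RNA per cell cannot be told apart.

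The 2 other genes for this step stayed at the detection limit. IDO2 (chromosome 8, 39934614 to 40016397), the paralog that lies 5824 bases downstream of IDO1, had 0 counts in untreated replicates 1, 2 and 3 and 0, 2 and 1 in the treated ones. TDO2 (chromosome 4, 155854738 to 155920406), the dioxygenase best known from liver, had 0 counts in all 6 libraries. No base of the exons of IDO1, IDO2 or TDO2 is shared with another gene on the same strand. Within 100 kb of IDO1 the annotation lists 8 other genes. Besides IDO2, 1 of them had a count, the intronic non-coding gene ENSG00000253838 with 4 counts in treated replicate 2. ADAM2, the nearest other protein-coding gene at 64048 bases, had 0 counts in all 6 libraries.

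**Figure D1:**
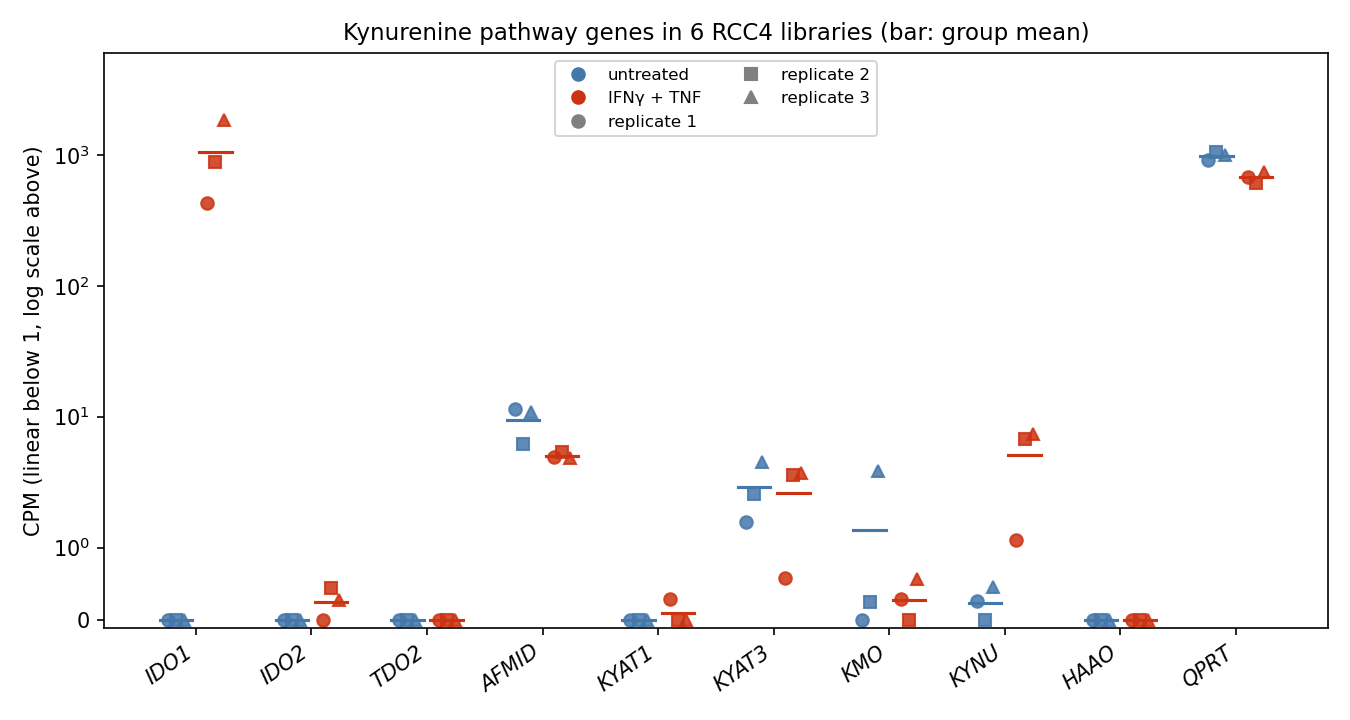
CPM of the 10 kynurenine pathway genes (vertical axis, linear below 1 and logarithmic above) in each of the 3 untreated and 3 treated libraries, with symbols for replicates and bars for group means. IDO1 sits at 0 in untreated cells and at 429.9 to 1842 CPM in treated cells, QPRT is abundant in both groups, and the other 8 genes stay at or below 11.5 CPM.

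IDO1 varied between the treated cultures far more than most genes of its abundance. Its highest treated library held 4.29 times the CPM of its lowest, and the SD of its log2 CPM over the treated libraries was 1.05. Among 212 other genes with 0.5 to 2 times its treated mean CPM, the median SD was 0.186 and the quartiles were 0.14 and 0.252. Only KRT81 among these 212 had a larger SD, 1.83. Ratios to other induced genes showed the same order. WARS1, the tryptophanyl-tRNA synthetase gene, had 9819, 11979 and 10020 counts in treated replicates 1, 2 and 3, so that IDO1 gave 0.152, 0.325 and 0.648 counts for each WARS1 count. Against IRF1, an interferon-induced activator of IDO1, the ratio of counts was 0.286, 0.702 and 1.5. Both ratios were lowest in treated replicate 1 and highest in replicate 3.

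**Figure D2:**
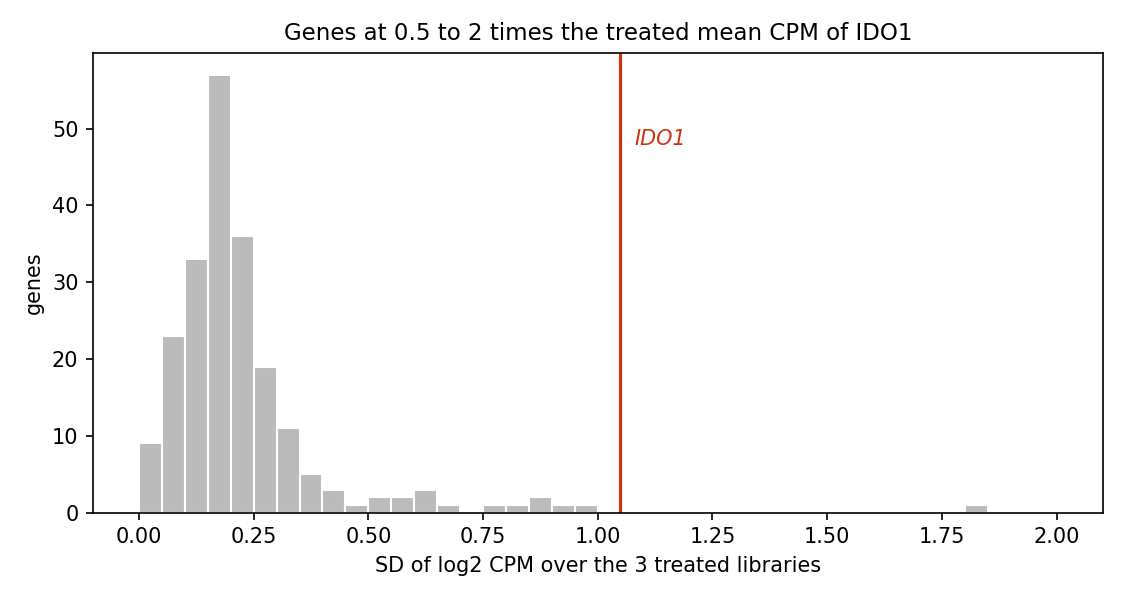
Number of genes (vertical axis) by the SD of log2 CPM over the 3 treated libraries (horizontal axis), for the 212 genes at 0.5 to 2 times the treated mean CPM of IDO1, with IDO1 as a line at 1.05. The median of these genes is 0.186, and 1 of them, KRT81, lies to the right of IDO1.

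Other genes with a wide treated range were looked up by the same ratio. Of 482 other genes called higher with a treated mean of at least 10 CPM, the median ratio of the highest to the lowest treated library was 1.4, and 6 genes reached the value of IDO1 or more. These were IFIT2 (7.74), RSAD2 (6.09), BIRC3 (4.73), IFIT3 (4.68), IFI44 (4.47) and CCL8 (4.35), named after their values were seen. IFIT2, RSAD2, IFIT3 and CCL8 had, like IDO1, their lowest CPM in treated replicate 1 and their highest in replicate 3. That order was found in 107 of the 482 genes (22.2%). IFIT2, IFIT3 and RSAD2 are antiviral genes of the interferon response, and IFIT3 had 466, 1242 and 2210 counts in treated replicates 1, 2 and 3.

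**Figure D3:**
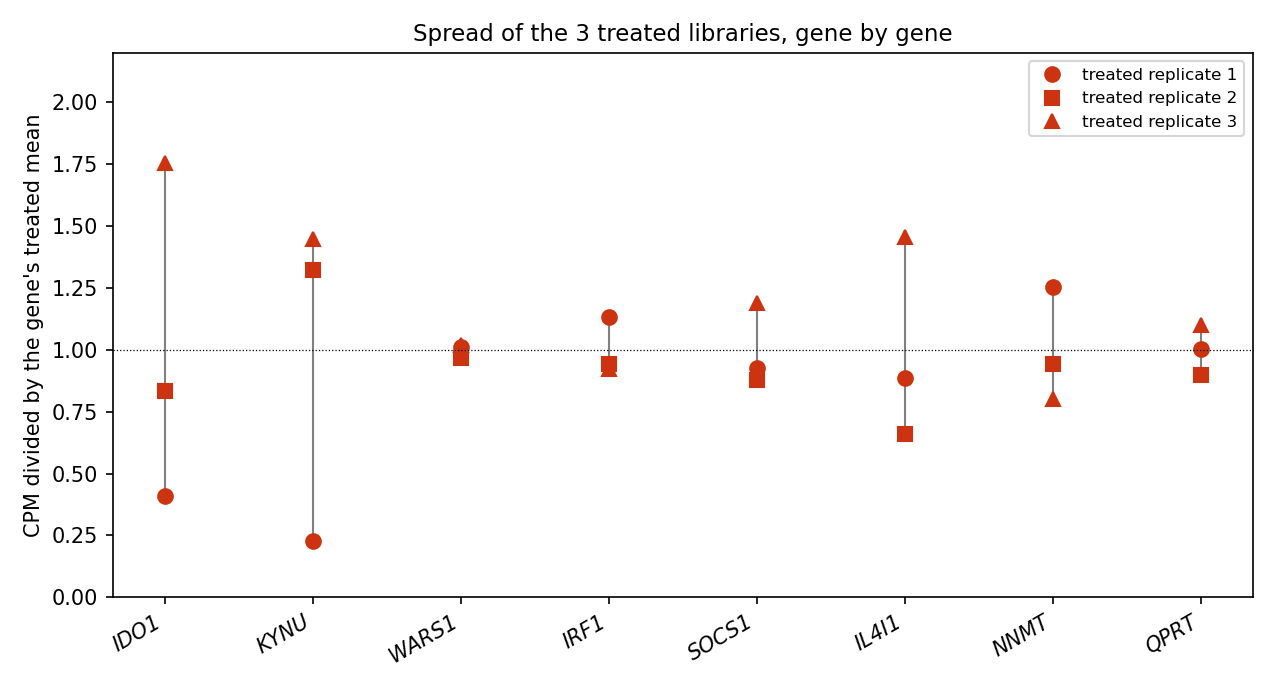
CPM of each gene in the 3 treated libraries divided by that gene's treated mean (vertical axis), with 1 symbol for each replicate and a line over the range. IDO1 and KYNU are lowest in treated replicate 1, whereas the WARS1 libraries nearly coincide.

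Over all 6 libraries, the pattern most like that of IDO1 belonged to CXCL10, which encodes a chemokine for T cells. The root-mean-square difference of their mean-centred log2 CPM was 0.383 over the 6 libraries. CXCL10 had 0 counts in every untreated library and 1728, 6756 and 4596 counts in treated replicates 1, 2 and 3. The next 4 were farther away: GBP4 (1.24), APOL4 (1.25), OAS2 (1.34) and IL18BP (1.35). All 5 were at or near 0 in untreated libraries, so the likeness rests mainly on the difference between the groups.

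Formamidase, the second step, is encoded by AFMID (ENSG00000183077; chromosome 17, 78187358 to 78207702), which turns formylkynurenine into kynurenine. It had 44, 24 and 48 counts in untreated replicates 1, 2 and 3 and 17, 24 and 17 in treated ones. Its level was 9.51 ± 2.9 CPM untreated and 5.03 ± 0.311 CPM treated (SD, n = 3 each), and the groups did not overlap in CPM. The log2 fold change was -0.91 (SE 0.34; adjusted p 0.165 by edgeR). The adjusted p ran from 0.113 to 0.407 over 13 alternatives, and the difference passed the threshold in 0 of them.

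The kynurenine aminotransferases, which make kynurenic acid, were scarce. KYAT3 (chromosome 1, 88935773 to 88992953) had 6, 10 and 20 counts in untreated replicates 1, 2 and 3 and 2, 16 and 13 in treated ones, and the groups overlapped. Its log2 fold change was -0.13 (SE 0.63, edgeR adjusted p 0.951), and the sign turned without untreated replicate 3 (0.35) or treated replicate 1 (0.32). Exons of RBMXL1 cover 16.3% of the exonic bases of KYAT3 on the same strand and none of its last 1000. KYAT1 (chromosome 9, 128832942 to 128882494) had 1 count in all, in treated replicate 1. An unnamed gene, ENSG00000286112, shares 57% of the last 1000 exonic bases of KYAT1 and itself had 0 counts in the 6 libraries. Reads in such shared exons go uncounted under the counter's defaults, so the count of 1 does not show how much KYAT1 RNA there was.

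Kynurenine 3-monooxygenase, the flavin enzyme that commits kynurenine to the branch toward NAD, is encoded by KMO (ENSG00000117009; chromosome 1, 241532134 to 241595642). It had 0, 1 and 17 counts in untreated replicates 1, 2 and 3 and 1, 0 and 2 in treated ones. Of the 18 untreated KMO counts, 17 came from replicate 3, the library that stood apart, and without it 1 untreated count remained. Pooled over libraries, untreated cells held 5.66 times the treated level, with a 95% interval for counting error (exact) of 1.65 to 30. KMO did not pass the filter. With a minimum of 1 count as the sole filter, its edgeR adjusted p was 0.147.

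Kynureninase, which cleaves kynurenine and 3-hydroxykynurenine, is encoded by KYNU (ENSG00000115919; chromosome 2, 142877657 to 143055833). It had 1, 0 and 2 counts in untreated replicates 1, 2 and 3 and 4, 30 and 26 in treated ones. Every treated library was above every untreated one, and treated replicate 1 was again the lowest, at 1.15 CPM against 6.74 and 7.38. The treated mean was 5.09 ± 3.43 CPM (SD, n = 3), and the ratio of pooled counts, scaled for library size, was 21.2 with a 95% interval for counting error (exact) of 6.91 to 105.7. KYNU missed the main filter. With a minimum of 1 count as the sole filter, 6.93% of 19158 genes were called and KYNU had a change of 4.24 on the log2 scale (SE 0.71; adjusted p 1.56e-07 by edgeR). In that fit every gene was given the spread of the trend over all genes, with no spread of its own. KYNU also entered 4 fits without 1 library, but passed their filter only through its treated libraries, where it is high, so their p-values are not given as support.

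Promoter windows of 250 bases before to 50 bases after the start site (RefSeq, GRCh38.p14) were searched for letters of the sites through which IFNγ and TNF are known to act. The table held 11 windows for 8 of the 10 genes, without IDO1 and IDO2. The gamma-activated site (TTCNNNGAA, both strands) was found in 7.66% of all 35116 windows and in 2 of these 11. The core of the interferon-stimulated response element (GAAA, then 2 bases of any kind, then GAAA, both strands) was found in 3.57% of all windows and in 1 of the 11. The NF-kappaB consensus, on both strands, was found in 11.3% of all windows and in 0 of the 11. The KYNU window held the gamma-activated letters at 2 places that do not overlap, from 34 bases before and from 5 bases after the start site. The other match among these genes was in KYAT1, where 1 window held the response element core and another the gamma-activated letters. A match describes letters and is not evidence of binding. KYNU is shown because its single window holds 2 matches and its treated libraries hold 60 counts in all, against 1 for KYAT1, beside the window of IRF1 and 1 of the 2 windows of WARS1, genes of the same response that were called higher. Capitals mark the matches.
KYNU, chr2:142877414-142877713, plus strand: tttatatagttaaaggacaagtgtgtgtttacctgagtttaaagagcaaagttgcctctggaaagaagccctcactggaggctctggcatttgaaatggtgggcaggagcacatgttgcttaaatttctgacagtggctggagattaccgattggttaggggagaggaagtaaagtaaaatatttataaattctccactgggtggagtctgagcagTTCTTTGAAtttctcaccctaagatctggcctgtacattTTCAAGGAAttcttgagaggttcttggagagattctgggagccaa
WARS1, chr14:100375298-100375597, minus strand: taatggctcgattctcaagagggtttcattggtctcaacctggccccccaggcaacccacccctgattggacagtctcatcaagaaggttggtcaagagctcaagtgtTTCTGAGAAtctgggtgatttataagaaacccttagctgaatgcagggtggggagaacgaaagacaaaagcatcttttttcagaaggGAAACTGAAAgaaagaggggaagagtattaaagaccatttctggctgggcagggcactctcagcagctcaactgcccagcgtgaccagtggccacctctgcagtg
IRF1, chr5:132490724-132491023, minus strand: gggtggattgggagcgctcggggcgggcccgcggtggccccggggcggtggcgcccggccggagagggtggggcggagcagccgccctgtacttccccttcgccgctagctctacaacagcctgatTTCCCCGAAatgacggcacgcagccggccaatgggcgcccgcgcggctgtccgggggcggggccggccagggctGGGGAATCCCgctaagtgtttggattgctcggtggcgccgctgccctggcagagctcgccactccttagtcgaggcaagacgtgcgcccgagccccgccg
In the WARS1 window the first run of capitals is a gamma-activated match and the second a response element core. In the IRF1 window they are a gamma-activated match and an NF-kappaB match.

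The last 2 enzymes lead to NAD. HAAO (chromosome 2, 42767089 to 42792593), the dioxygenase that makes the precursor of quinolinic acid, had 0 counts in all 6 libraries, and no exon base of it is shared on its strand. QPRT (ENSG00000103485; chromosome 16, 29663279 to 29698699), which turns quinolinic acid into nicotinic acid mononucleotide, was by contrast abundant. It had 3498, 4070 and 4408 counts in untreated replicates 1, 2 and 3 and 2359, 2703 and 2625 in treated ones. QPRT held between 98.1% and 99.1% of all counts of the 10 genes in untreated libraries. In treated replicates 1, 2 and 3 that share was 60.8%, 40.5% and 28.6%, and IDO1 held 38.6%, 58.4% and 70.7%. The level of QPRT was 985.8 ± 68.8 CPM untreated and 676.8 ± 69 CPM treated (SD, n = 3 each), and every treated library lay below every untreated one. The log2 fold change of -0.54 (SE 0.16) had an edgeR adjusted p of 0.0733, which did not pass the threshold. It passed in 2 of 13 alternatives, scaling to library totals alone (0.0278) and a replicate block (0.0192), and ran up to 0.311.

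Levels of different genes were compared per kilobase of exonic length. In untreated cells the order was QPRT (267.9 CPM per kilobase), AFMID (2.37), KYAT3 (1.32), KMO (0.23) and KYNU (0.0136), and the other 5 genes were at 0. The AFMID libraries (1.54 to 2.86) overlapped those of KYAT3 (0.712 to 2.06), so their order is not firm. In treated cells IDO1 had a mean of 300.8 CPM per kilobase and QPRT 183.9. The libraries overlapped, with 123.3, 250.8 and 528.1 for IDO1 and 184.2, 165 and 202.5 for QPRT in replicates 1, 2 and 3. AFMID (1.26), KYAT3 (1.19) and KYNU (0.292) followed on this scale, and the KYAT3 libraries (0.262 to 1.68) overlapped those of AFMID (1.2 to 1.34). A nanopore read covers 1 RNA molecule from its 3′ end whatever its length, so dividing by length lowers the value of long genes such as KYNU, with 17442 exonic bases. In CPM without that division the treated means were 5.09 for KYNU, 5.03 for AFMID and 2.62 for KYAT3, so the place of KYNU turns with the scale.

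In the edgeR quasi-likelihood fit over all genes, 1 of the 10 genes was called higher, 0 lower, 3 did not pass the threshold and 6 were not tested, beside the 5.58% of all tested genes called higher and 2.55% called lower. The called gene was IDO1, which passed the filter only through its treated libraries. In 3 of the 4 tested members, IDO1, AFMID and QPRT, the groups did not overlap, beside 25.9% of all tested genes. The 2 with an unadjusted p under 0.05 and a lower level were AFMID and QPRT, and DESeq2 and limma voom also called 0 of the 10 lower. Genes around the pathway were read from 7 lists fixed by function, beside a median log2 fold change of -0.03 over all genes tested. Counts at an unadjusted p under 0.05, here and in the lists, have no share over all genes beside them and are description only.

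Among 12 other tryptophan-handling enzymes, 4 were tested and 1 was called higher (median log2 fold change 0.08), while 6 had 0 counts in every library. The called gene was IL4I1, a secreted amino acid oxidase that acts on phenylalanine, tyrosine and tryptophan. It had 94, 96 and 64 counts in untreated replicates 1, 2 and 3 and 668, 634 and 1109 in treated ones. Mean levels were 21.2 ± 5.83 CPM untreated and 216.4 ± 88.7 CPM treated (SD, n = 3 each), a change of 3.35 on the log2 scale (SE 0.35; adjusted p 0.000398 by edgeR), and it passed under all 13 alternatives. Exons of NUP62 cover 13.5% of the exonic bases of IL4I1 and none of its last 1000. AADAT and GOT2, which also make kynurenic acid, had log2 fold changes of -0.15 and -0.18 (edgeR adjusted p 0.893 and 0.726). The most abundant gene of the list was GOT2, at 308.1 ± 51.5 CPM in untreated cells.

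Of 11 genes for tryptophan and kynurenine transport, 5 were tested, 2 were called lower and 0 higher, in edgeR, DESeq2 and limma voom alike (median log2 fold change -0.37). At an unadjusted p under 0.05 the counts were 2 lower and 0 higher, with no share over all genes beside them. The 2 were SLC7A5 and SLC3A2, which encode the light and heavy chains of LAT1, the main carrier of tryptophan, kynurenine and other large neutral amino acids. SLC7A5 had 1903, 1676 and 1873 counts in untreated replicates 1, 2 and 3 and 503, 477 and 300 in treated ones. Mean levels were 450.5 ± 39.4 CPM untreated and 112.3 ± 30 CPM treated (SD, n = 3 each), a change of -2.0 on the log2 scale (SE 0.22; adjusted p 0.000579 by edgeR). SLC3A2 went from 395 ± 16.2 to 194.4 ± 25.5 CPM, a change of -1.02 on the log2 scale (SE 0.17; adjusted p 0.00552 by edgeR). Both fell in every treated library and under all 13 alternatives.

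Of 14 genes of NAD synthesis and use, 6 were tested and 1 was called higher (median log2 fold change 0.12). NNMT, which methylates nicotinamide and is known to be abundant in clear cell carcinoma, rose from 994.6 ± 63.6 to 3101 ± 719.3 CPM (SD, n = 3 each). Its log2 fold change was 1.64 (SE 0.19; adjusted p 0.000854 by edgeR), past the threshold under all 13 alternatives. NAMPT, the salvage enzyme, gave 39, 82 and 159 counts without cytokines and 67, 277 and 155 with them in replicates 1, 2 and 3, and the groups overlapped. Its log2 fold change was 0.90 (SE 0.50, edgeR adjusted p 0.381), and it passed in 2 of 13 alternatives, among them the sole filter of 1 count (0.0139). In that fit no gene was given a spread of its own.

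Kynurenine is a ligand of the aryl hydrocarbon receptor, and of 12 genes of that receptor's machinery and targets 9 were tested and 0 called by edgeR or limma voom (median log2 fold change 0.19). At an unadjusted p under 0.05 there was 1 gene in each direction, and DESeq2 called 1 lower. The target gene CYP1B1, named after its values were seen, gave 9, 37 and 113 counts without cytokines and 4, 17 and 8 with them in replicates 1, 2 and 3, with overlapping groups. Of its 159 untreated counts, 113 came from replicate 3, the library that stood apart. The log2 fold change of CYP1B1 was -2.33 (SE 0.78, edgeR adjusted p 0.123, DESeq2 adjusted p 0.0177). CYP1A1, the classical target, had at most 2 counts in any library. AHR itself was low, with 4.47 ± 2.96 CPM untreated and 5.14 ± 1.03 CPM treated, and HSP90AB1, the list's most abundant gene, had a log2 fold change of -0.09 (edgeR adjusted p 0.865).

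Cells sense a lack of tryptophan through the kinase GCN2 (EIF2AK4) and the factor ATF4. Of 14 genes of this list 12 were tested, 1 was called higher, WARS1, and 0 lower (median log2 fold change -0.16; 1 gene was lower at an unadjusted p under 0.05, and DESeq2 and limma voom called 0 lower). WARS1 had 208, 218 and 227 counts in untreated replicates 1, 2 and 3, and its log2 fold change was 5.69 (SE 0.17; adjusted p 1.02e-06 by edgeR). Of the ATF4 targets, TRIB3 had a log2 fold change of -0.69 (edgeR adjusted p 0.241), which passed in 1 of 13 alternatives, a replicate block (0.00676), CHAC1 0.26 (0.775) and DDIT3 0.47 (0.738). The ATF4 gene was at 208.2 ± 13.2 CPM untreated and 221 ± 31.7 CPM treated, and EIF2AK4 25.8 ± 2.54 and 18.7 ± 0.803 CPM (SD, n = 3 each; edgeR adjusted p 0.876 and 0.257). ASNS had 0 counts in all 6 libraries, and another gene shares 98.9% of its last 1000 exonic bases.

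**Figure D4:**
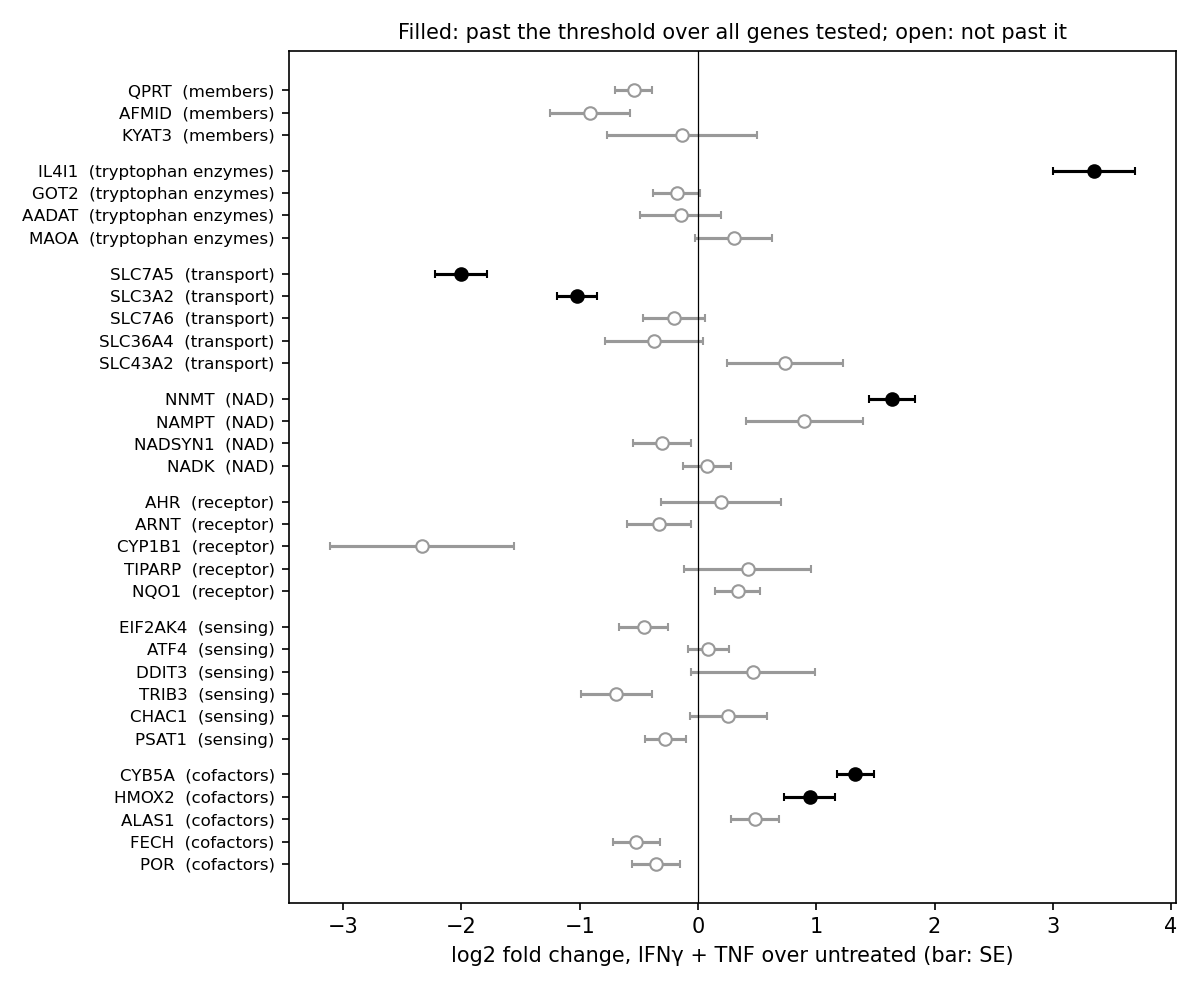
Log2 fold changes with SE (horizontal axis) for 3 pathway genes and for selected tested genes of 6 surrounding lists, filled where past the threshold over all genes. IL4I1, NNMT, CYB5A and HMOX2 lie above 0 and SLC7A5 and SLC3A2 below it, whereas QPRT, AFMID and KYAT3 are open points.

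IDO1 is a heme enzyme that takes electrons from cytochrome b5, and KMO and the aminotransferases need flavin and pyridoxal phosphate. Of 18 cofactor genes 17 were tested, 2 were called higher and 0 lower (median log2 fold change -0.18; 1 gene was lower at an unadjusted p under 0.05, and DESeq2 and limma voom called 0 lower). CYB5A, which encodes cytochrome b5, gave 432, 439 and 507 counts without cytokines and 951, 1277 and 1042 with them in replicates 1, 2 and 3. Mean levels were 113.5 ± 1.25 CPM untreated and 285.3 ± 11.3 CPM treated (SD, n = 3 each), a change of 1.33 on the log2 scale (SE 0.15; adjusted p 0.000778 by edgeR). HMOX2, the constitutive heme oxygenase, rose from 210 ± 49.9 to 404.3 ± 49.8 CPM (log2 fold change 0.95, edgeR adjusted p 0.0275). That call was lost in 4 of the 6 fits without 1 library, those without untreated replicate 2 and without each treated replicate, with adjusted p up to 0.101. HMOX1, the inducible form, gave 422, 446 and 1530 counts without cytokines and 253, 287 and 1936 with them in replicates 1, 2 and 3, so that replicate 3 was high in both groups.

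Genes known to act on IDO1 expression or protein formed the last list. Of 16 listed, 12 were tested, 7 were called higher and 0 lower (median log2 fold change 1.19; 0 lower also at an unadjusted p under 0.05 and by DESeq2 and limma voom). Several of them had been described in these libraries before the list was made, so the count is no independent evidence of direction. SOCS1 and SOCS3, feedback inhibitors of cytokine signalling, went from 4.23 ± 2.09 to 149.1 ± 25 CPM and from 9.11 ± 2.69 to 135.1 ± 28.6 CPM (SD, n = 3 each). Their log2 fold changes were 5.15 (SE 0.36) and 3.89 (SE 0.28), with edgeR adjusted p of 3.85e-05 and 4.39e-05. IRF1, the list's most abundant gene, had a log2 fold change of 5.29 (edgeR adjusted p 3.35e-06). RELA, an NF-kappaB subunit, and TNFRSF1A, a TNF receptor, had log2 fold changes of 1.63 and 1.03 (edgeR adjusted p 0.003 and 0.00798). RELB, another NF-kappaB subunit, had 1.36 with an edgeR adjusted p of 0.0429, which was lost without untreated replicate 2 and without each treated replicate (up to 0.143). IFNGR2, a subunit of the receptor for IFNγ, had a log2 fold change of 0.61 that did not pass (edgeR adjusted p 0.142).

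**Figure D5:**
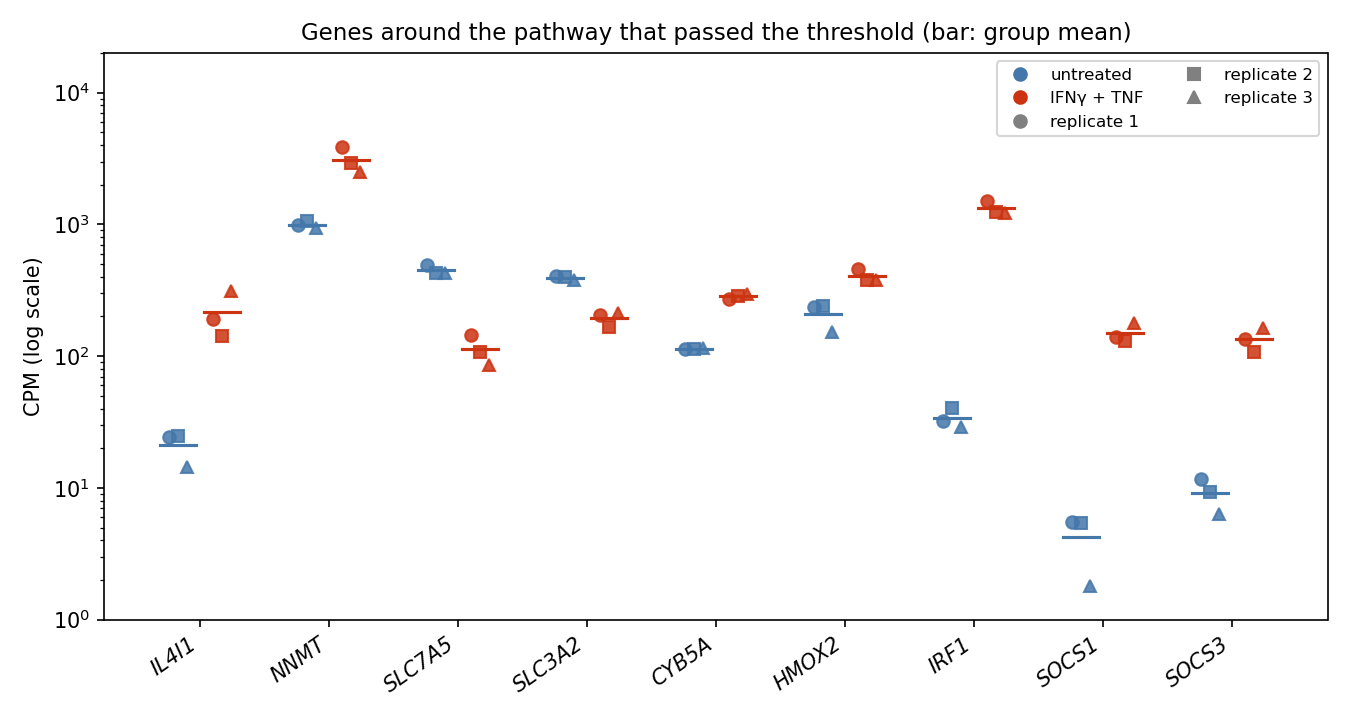
CPM (log axis) of 9 genes from the surrounding lists that passed the threshold, in each of the 3 untreated and 3 treated libraries, with bars for group means. SLC7A5 and SLC3A2 lie lower in treated cells and the other 7 lie higher, with no overlap between the groups.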

How the data were processed

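The authors deposited read counts per gene for each library. Per the file headers, these were made with featureCounts 2.0.1 in long-read mode, with strand-specific counting of exons of Ensembl 105 on GRCh38. Neither multi-mapping reads nor reads overlapping several genes were requested. The submitters' processing notes name minimap2 2.24 and SAMtools 1.16. Libraries used 500 ng of poly(A) RNA and 72 h of sequencing, and reads above quality 7 were kept, per the labels and design text. Alignment names in the headers hold the word dmso, and groups were taken from sample titles.

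Symbols came from a gene name table, which named 61369 of 61541 identifiers. Counts were tested with edgeR 4.0.16 (R 4.3.3): quasi-likelihood F test, TMM, filterByExpr, group as the sole term, Benjamini-Hochberg adjustment over all genes, threshold 0.05. SE was taken from the fold change and its F statistic. Alternatives were DESeq2 size factors, library totals, 2 other filters, a replicate block, DESeq2 1.42.0, limma voom (3.58.1) and leaving out each library. The members and lists were chosen with earlier results of these data known. Named genes were all members, up to 6 called genes and the most abundant gene of each list, neighbours within 100 kb with a count, and the 5 genes with the smallest root-mean-square difference from IDO1 (log2 CPM, prior count 2). 1 gene that this rule selects is not reported here. Other genes of the lists were named for their role after their values were seen. Nothing beyond the labels' word biological says whether replicates were grown independently. The p-values therefore set the group difference against the variation between these libraries, pooled in part over all genes, and reach no further.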

Additional observations from a re-analysis of the deposited data

How the results depend on the processing

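Over 13 alternatives, IDO1, IL4I1, SLC7A5, SLC3A2, NNMT, CYB5A and WARS1 kept their direction and their call, and AFMID passed in none. IDO1 entered these fits only through its treated libraries. The genes called over the whole table numbered 1328 (849 higher, 479 lower) with a minimum of 1 count as the sole filter. Leaving out 1 library in turn gave 455 to 1178 genes, 358 to 733 higher and 96 to 445 lower. The lowest count was without treated replicate 3 and the highest without untreated replicate 3. Among the 10 pathway genes, 2 were called higher with the filter of 1 count, and 1 to 2 without 1 library, where the second gene was KYNU, which passed the filter there only through its treated libraries, and 1 was called lower, QPRT, with library totals alone. The log2 fold change of KYAT3 ran from -0.42 to 0.35 without 1 library. With the filter of 1 count, 3 transport genes were called lower, and 3 cofactor genes and 8 IDO1 regulators higher. The transport gene added was SLC16A10. It had 4, 5 and 2 counts in untreated replicates 1, 2 and 3 and 0 in each treated library. SLC16A10 passed this filter only through its untreated libraries, where it is high, so its p-value is not given as support. With that filter, 2 NAD genes (NNMT and NAMPT) were called higher and 1 aryl hydrocarbon receptor gene (CYP1B1) lower. No gene had a spread of its own in that fit, and the groups of NAMPT and CYP1B1 overlapped. DESeq2 also called 1 gene of that receptor list lower, and leaving out 1 library called 0 to 1. Cofactor genes called higher numbered 1 to 2 and those called lower 0 to 1 without 1 library. The causes of these changes were not tested.

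Whether replicate numbers pair the samples could not be decided. Deviations from the group means correlated at 0.651, -0.0037 and 0.374 for the same-numbered libraries 1, 2 and 3. Untreated replicates 2 and 3 each correlated better with another number, replicate 3 only narrowly (0.413 against 0.374). With 3 libraries in each group these correlations depend on each other, so they cannot settle the question. With the replicate number as a block, 1512 genes were called, 907 higher and 605 lower. That block fit called 1 pathway gene lower (QPRT, adjusted p 0.0192), 2 NAD genes higher (NAMPT the second, adjusted p 0.00988), and 1 gene lower in each of the aryl hydrocarbon receptor (CYP1B1) and tryptophan sensing (TRIB3, adjusted p 0.00676) lists. At this depth, IDO2, TDO2, HAAO and KYAT1 could not be compared between groups.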
